A study of Homo sapiens with 4 samples.

Results

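SERPINE2, PLAU, PLAUR and PLAT encode an inhibitor of plasminogen activators, the urokinase-type activator, its cell surface receptor and the tissue-type activator. They were taken by gene symbol and are 4 of the 14147 genes tested, each with 1 row on the array and each bright enough to be tested. SERPINE2 was selected on its measured difference between anti-miR-191 and control, which is among the largest, and the others because they belong to the same system. The values of this contrast are therefore given for these 4 genes as a description, with no p-value. Whether each met the rule used for all genes is given as a status. That status chose the members for which similar genes are named, and no result is read from it. The cells were HepG2, an established human line from a hepatocellular carcinoma, and their RNA was profiled on 4 Affymetrix arrays. The groups were 2 cultures transfected with anti-miR-191, an antisense inhibitor of the microRNA miR-191, and 2 cultures transfected with a negative control anti-miR (anti-miR-NC). All 4 cultures received the same lipid transfection reagent, and no untransfected culture is part of the comparison. Per the series' design text the transfections were repeated as 2 independent experiments, each giving 1 array of either kind, and the comparison addresses how inhibition of miR-191 changes gene expression.

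Plasminogen is a zymogen made by the liver. Urokinase and tissue-type plasminogen activator cleave it to plasmin, a serine protease that dissolves fibrin and degrades matrix proteins. The urokinase receptor, held in the membrane by a lipid anchor, concentrates urokinase at the cell surface and binds the matrix protein vitronectin. Serpins trap such proteases by a one-way conformational change. SERPINE2, also called protease nexin-1, is a secreted serpin of the clade E that inhibits urokinase, tissue-type activator and thrombin, and its complexes with proteases are taken up through LRP1.

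The sequences of miR-191 and of the regions in front of the member genes are shown to place the measurements. The agent was directed at miR-191, whose mature strands were taken from RefSeq (GRCh38.p14). The 5p strand lies at chr3:49020672-49020694 and the 3p strand at chr3:49020631-49020652, both on the minus strand, and the labels do not say which strand was targeted. Capitals mark the seed, bases 2 to 8, through which a microRNA pairs with its targets.
hsa-miR-191-5p: cAACGGAAucccaaaagcagcug
hsa-miR-191-3p: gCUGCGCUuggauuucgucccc

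The 250 bases in front of the annotated starts of SERPINE2, PLAU and PLAUR are shown because these 3 genes read higher on both anti-miR-191 arrays than on both controls. They were taken from RefSeq's promoter windows (GRCh38.p14), which give 2 starts for SERPINE2, 2 for PLAU and 1 for PLAUR. The SERPINE2 windows lie at chr2:224038641-224038890 (start 1) and chr2:224031479-224031728 (start 2) on the minus strand. Those of PLAU lie at chr10:73910360-73910609 (start 1) and chr10:73910882-73911131 (start 2) on the plus strand, and that of PLAUR lies at chr19:43670170-43670419 on the minus strand. Capitals mark matches, on either strand, to 6 motifs. The letters searched were TGANTCA for the site of AP-1 proteins and TGACGTCA for the cyclic AMP response element (CRE). They were GGGCGG for the GC box, CACGTG for the E-box, TATAAA for the promoter element bound by TBP (TATA box) and CCAAT for the box of that name. No 2 of the marked matches overlap.
SERPINE2, start 1: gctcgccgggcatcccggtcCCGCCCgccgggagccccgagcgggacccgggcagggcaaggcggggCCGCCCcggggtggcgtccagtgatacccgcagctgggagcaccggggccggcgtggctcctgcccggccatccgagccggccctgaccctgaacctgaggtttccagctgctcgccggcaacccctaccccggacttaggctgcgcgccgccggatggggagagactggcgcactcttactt
SERPINE2, start 2: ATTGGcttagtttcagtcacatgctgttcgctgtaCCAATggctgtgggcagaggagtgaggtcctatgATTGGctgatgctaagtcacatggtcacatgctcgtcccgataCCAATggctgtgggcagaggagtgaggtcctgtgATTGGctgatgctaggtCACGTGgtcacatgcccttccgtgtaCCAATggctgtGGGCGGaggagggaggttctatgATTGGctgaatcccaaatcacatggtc
PLAU, start 1: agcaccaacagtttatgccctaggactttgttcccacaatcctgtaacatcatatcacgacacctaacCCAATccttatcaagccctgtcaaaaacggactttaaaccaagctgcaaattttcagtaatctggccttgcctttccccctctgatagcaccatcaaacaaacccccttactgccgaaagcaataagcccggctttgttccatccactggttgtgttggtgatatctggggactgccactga
PLAU, start 2: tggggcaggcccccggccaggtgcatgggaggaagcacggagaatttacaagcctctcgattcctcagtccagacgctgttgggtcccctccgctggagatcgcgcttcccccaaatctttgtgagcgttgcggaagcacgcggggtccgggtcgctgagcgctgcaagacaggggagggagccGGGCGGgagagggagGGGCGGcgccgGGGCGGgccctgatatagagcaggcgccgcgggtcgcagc
PLAUR: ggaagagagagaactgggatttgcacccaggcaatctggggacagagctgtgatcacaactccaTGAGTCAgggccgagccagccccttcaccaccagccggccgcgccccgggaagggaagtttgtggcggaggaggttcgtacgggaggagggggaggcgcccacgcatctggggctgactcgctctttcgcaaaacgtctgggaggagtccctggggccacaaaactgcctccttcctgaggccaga

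The 5 windows differed in base composition and in the motifs they hold. Start 2 of SERPINE2 had a GC content of 53.2% and 7 matches to the CCAAT box, 3 on the gene strand and 4 on the other. At least 7 such matches were found in 7 of 35116 windows of this length, or 0.0199%. The 3 matches on the gene strand were 77 bases apart, and the window's last 3 units of 77 bases resembled each other, with 89.6% identical bases between the first and the next unit and 67.5% between the next and the last, counted base by base without gaps. The same window held 1 E-box, a motif found in 6.34% of all windows. Start 1 of SERPINE2 had a GC content of 75.2% and 2 GC boxes, a motif found in 42.6% of windows. Start 2 of PLAU held 3 GC boxes between positions -66 and -35 relative to the start, and at least 3 were found in 13.9% of windows. Start 1 of PLAU held 1 CCAAT box, as 32.0% of windows did at least once. PLAUR held 1 match to AP-1, the site of FOS and JUN proteins, at positions -186 to -180, and 6.57% of all windows held this motif. No match to AP-1 was found in these windows of SERPINE2 and PLAU, and none to CRE or the TATA box, motifs found in 1.65% and 10.7% of windows, in any of the 5. A match is a description of the letters and shows neither binding nor a cause.

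**Figure D1:**
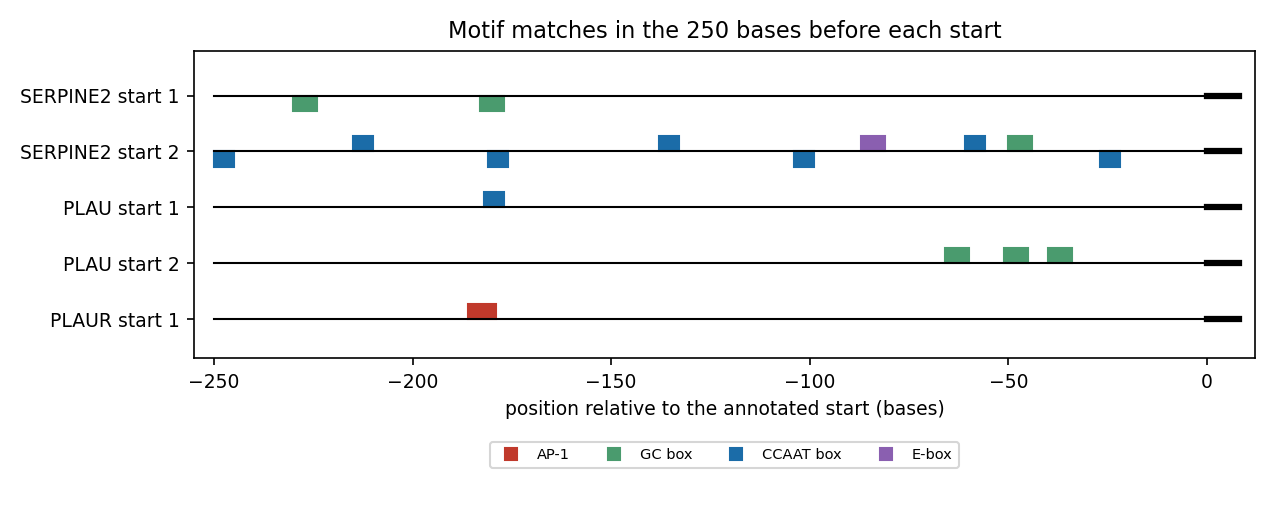
Motif matches in the 250 bases before each annotated start of SERPINE2, PLAU and PLAUR. The x axis is the position relative to the start in bases, boxes above a line are matches on the gene strand or on both strands and boxes below it are on the other strand, and SERPINE2 start 2 shows 3 CCAAT boxes above the line, 77 bases apart, and 4 below it, 69 or 77 bases apart.

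Values are RMA intensities on the log2 scale, on which a difference of 1 is a doubling, and each group had 2 arrays. Array medians lay between 4.37 and 4.43. The rows of 7 genes typical of hepatocytes, among them ALB, APOA1 and TTR, had mean levels of 8.95 to 11.10 after anti-miR-191 and 9.49 to 11.58 in controls. Each of these 7 genes had a lower mean after anti-miR-191, and TTR differed most, with 9.85 against 10.89 in controls. Only APOA1, TTR and SERPINA1 were lower in both experiments. ALB, AFP, APOB and TF read higher after anti-miR-191 in experiment 1 and lower in experiment 2. ALB, for example, read 10.62 against 10.14 in experiment 1 and 9.65 against 10.58 in experiment 2. The sum of their log2 levels, which is not a sum of amounts, was 71.3 after anti-miR-191, against 74.3 in controls. The rows of 13 genes that the culture should lack had mean levels of 2.52 (PTPRC) to 9.56 (LYZ) after anti-miR-191 and 2.62 (PTPRC) to 9.24 (LYZ) in controls. The sum of their log2 levels was 58.7 after anti-miR-191, against 58.9 in controls. LYZ thus lay within the range of the hepatocyte rows after anti-miR-191, so the absence of all 13 genes from the culture is not shown. These rows set no single background limit, and an intensity of 0 does not occur on this scale. Their part in the results was not tested.

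SERPINE2 read 6.18 and 6.45 after anti-miR-191 in experiments 1 and 2, against 3.96 and 3.72 in controls. Both anti-miR-191 arrays were far above both controls, with a gap of 2.21 between the nearest arrays of the groups. The mean level was 6.31 ± 0.19 on the anti-miR-191 arrays, against 3.84 ± 0.17 on the controls (SD, n = 2 each). The difference, anti-miR-191 minus control, was 2.21 in experiment 1 and 2.73 in experiment 2, with a mean of 2.47 ± 0.17 (SE). Here and below, the SE of a difference comes from the paired fit of all genes, which draws each gene's variance towards a value common to all. It is not the spread of the 2 differences beside it. The control level of SERPINE2 lay inside the range of the rows of genes that the culture should lack, 6 of which read higher in controls, so SERPINE2 is not shown to be above background in control cells. The difference is that between the row's readings, and the change in transcript may be larger. After anti-miR-191, only LYZ among those 13 rows read higher than SERPINE2.

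PLAU, which encodes urokinase-type plasminogen activator, read 5.81 and 5.68 after anti-miR-191, against 5.20 and 5.12 in controls. The groups did not overlap, and their nearest arrays were 0.48 apart. Its difference was 0.61 in experiment 1 and 0.57 in experiment 2, with a mean of 0.59 ± 0.14 (SE). The 2 differences were thus nearly equal, while experiment 2 read lower than experiment 1 in both groups, by 0.12 after anti-miR-191 and 0.08 in controls. In controls the rows of 4 of the 13 genes that the culture should lack read higher than PLAU, and 2 did so after anti-miR-191. PLAU is thus not shown to be above background in either group. Its difference describes readings of this row and may not be a change in transcript.

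PLAUR, which encodes the urokinase receptor, read 5.98 and 5.50 after anti-miR-191, against 5.36 and 5.28 in controls. The anti-miR-191 array of experiment 1 was the high one, and the array of experiment 2 exceeded the higher control by 0.14. The mean level was 5.74 ± 0.33 on the anti-miR-191 arrays, against 5.32 ± 0.05 on the controls (SD, n = 2 each). Its difference was 0.62 in experiment 1 and 0.22 in experiment 2, with a mean of 0.42 ± 0.16 (SE). In experiment 1 the differences of PLAUR and PLAU were alike, at 0.62 and 0.61, and in experiment 2 that of PLAUR was the smaller, at 0.22 against 0.57. In controls 3 of the 13 rows of genes that the culture should lack read higher than PLAUR, and 2 did so after anti-miR-191. The limit stated for PLAU therefore holds for PLAUR in both groups.

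PLAT, which encodes tissue-type plasminogen activator, was the member with lower levels after anti-miR-191. It read 4.20 and 4.11 after anti-miR-191, against 4.60 and 4.72 in controls. The groups did not overlap, with 0.40 between their nearest arrays. Its difference was -0.40 in experiment 1 and -0.60 in experiment 2, with a mean of -0.50 ± 0.15 (SE). Of the 13 rows of genes that the culture should lack, 6 read higher than PLAT after anti-miR-191 and 4 did so in controls, so PLAT is not shown to be above background in either group, and its differences describe readings of this row and may not be a change in transcript.

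**Figure D2:**
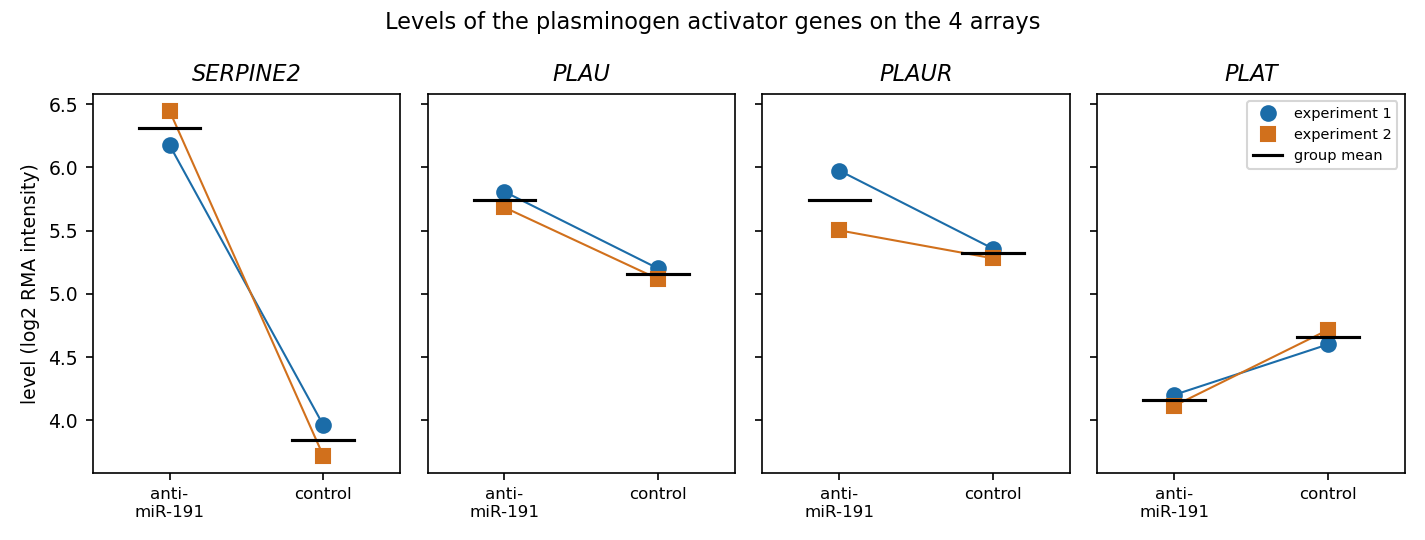
Levels of SERPINE2, PLAU, PLAUR and PLAT on the 4 arrays, as log2 RMA intensity on the y axis, with anti-miR-191 left of control in each panel. Points joined by a line are the 2 arrays of 1 experiment and black bars are group means of 2 arrays, and the panels show SERPINE2 at 6.18 and 6.45 after anti-miR-191 against 3.96 and 3.72 in controls, smaller gaps for PLAU and PLAUR, and PLAT lower after anti-miR-191.

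In limma's paired fit, in which the experiment is a block, 1961 of 14147 genes had an adjusted p under 0.05, or 13.9%, with 10.1% higher and 3.77% lower after anti-miR-191. By this rule SERPINE2 and PLAU, 2 of the 4 members, counted as higher, and PLAUR and PLAT did not pass. PLAU did not pass in the fit without the block, in which 3.91% of genes passed, nor after quantile normalization. The 2 groups did not overlap for any of the 4 members, as for 53.2% of all genes tested, 29.4% higher and 23.8% lower. Nothing is read from these counts, since the members were chosen with the contrast known.

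The difference between the experiments was not used to choose the members and was tested. No member passed this test of experiment 2 against experiment 1 in the paired fit, whereas 0.318% of all genes did (45 of 14147, and 1735 at an unadjusted p under 0.05). Experiment 2 minus experiment 1, over both groups, was 0.01 ± 0.17 (SE) for SERPINE2 (limma's adjusted p = 0.983) and 0.01 ± 0.15 for PLAT (adjusted p = 0.981). It was -0.10 ± 0.14 for PLAU (limma's adjusted p = 0.831) and -0.27 ± 0.16 for PLAUR (adjusted p = 0.541). Whether the effect of anti-miR-191 itself differed between the experiments could not be tested, with 1 array per group in each. The differences of experiment 2 exceeded those of experiment 1 by 0.51 for SERPINE2, and the same subtraction gave -0.04 for PLAU, -0.40 for PLAUR and -0.20 for PLAT.

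The genes whose levels over the 4 arrays were most like those of SERPINE2 were LIF, TMC7 and HBEGF, by the Euclidean distance between log2 values after each gene's own mean was subtracted. LIF, a cytokine of the IL-6 family, was the nearest, at a distance of 0.11, with differences of 2.21 and 2.81 in experiments 1 and 2. TMC7, of a family of transmembrane channel-like proteins, followed at 0.15, with differences of 2.13 and 2.84. HBEGF, a ligand of the EGF receptor, followed at 0.27, with differences of 2.28 and 2.85. For PLAU the nearest were CCDC59, UBE2Q1 and AFTPH, at distances of 0.020, 0.027 and 0.032, and their differences lay between 0.54 and 0.62 in both experiments. With 4 arrays, few values set such patterns apart, and the number of genes that share them was not counted.

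Of 64 other genes of the plasminogen system, 63 had a row with 1 symbol and 50 were bright enough to be tested. In limma's paired fit 3 rose, 1 fell and 46 did not pass, against 10.1% higher and 3.77% lower over all genes. The list's median difference was -0.02, and that of all genes tested was 0.01. The 13 untested rows had mean levels from 2.53 to 3.40. Among them was PLG, the substrate of the activators, which read 2.96 and 3.17 after anti-miR-191, against 3.17 and 3.05 in controls. Its groups overlapped. PLGRKT, a membrane receptor of plasminogen, read 3.22 and 3.49 after anti-miR-191, against 3.48 and 3.42 in controls, and its groups overlapped too.

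Among zymogens and activating proteases, the membrane serine proteases ST14 and HPN went opposite ways. ST14 encodes matriptase, which can activate pro-urokinase. It read 5.93 and 6.59 after anti-miR-191, against 5.13 and 4.84 in controls. ST14 rose by 1.27 ± 0.22 (SE; limma's adjusted p = 0.0115 in the paired fit and 0.048 without the block), higher in both experiments. In controls 4 of the 13 rows of genes that the culture should lack read higher than ST14, so its control level is not shown to be above background. HPN encodes hepsin, a protease of the hepatocyte surface that activates pro-HGF. It read 7.02 and 6.58 after anti-miR-191, against 8.04 and 7.20 in controls, so it was lower in both experiments. HPN fell by 0.82 ± 0.16 (SE; limma's adjusted p = 0.0164), and it did not pass without the block (adjusted p = 0.190). The other 6 genes of this group that were tested did not pass. The largest of their mean differences were 0.28 for CTSL and 0.20 for CTSB, which encode lysosomal cysteine proteases.

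Of 15 receptors and binding partners tested, ITGAV rose and 14 did not pass. ITGAV, the integrin αV subunit that binds vitronectin with several β subunits, read 7.71 and 8.15 after anti-miR-191, against 6.35 and 7.29 in controls. The groups did not overlap, although the controls differed between the experiments. It rose by 1.11 ± 0.17 (SE; limma's adjusted p = 0.0074), and without the block it did not pass (adjusted p = 0.119). VLDLR, an endocytic receptor for protease and serpin complexes, had a difference of 0.56 ± 0.17 (SE; limma's adjusted p = 0.0691). COL1A1, a gene that the culture should lack, read higher than VLDLR in both groups, so VLDLR is not shown to be above background. ANXA2, which binds plasminogen and tissue-type activator at the cell surface, had a difference of 0.50 ± 0.16 (SE; limma's adjusted p = 0.0796). LRP1, the receptor that clears SERPINE2 and its complexes, read 8.26 and 8.35 after anti-miR-191, against 8.35 and 8.52 in controls, so its groups overlapped slightly and its mean difference was -0.13.

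Of 12 substrates and downstream proteases tested, THBS1 rose and 11 did not pass. THBS1 encodes thrombospondin-1, a matrix glycoprotein that binds plasminogen and can activate latent TGF-β. It read 7.49 and 8.03 after anti-miR-191, against 6.26 and 6.97 in controls. It rose by 1.15 ± 0.15 (SE; limma's adjusted p = 0.0047), and without the block it did not pass (adjusted p = 0.083). FGB and FGA, chains of fibrinogen, had the largest of the other mean differences, -0.43 and -0.33, and for both the difference was near 0 in experiment 1 (0.01 and 0.03) and larger in experiment 2 (-0.88 and -0.68). None of the 8 inhibitors outside the serpins passed in limma's paired fit (1 was higher at an unadjusted p under 0.05), with differences from -0.29 for TFPI, the inhibitor of tissue factor, to 0.35 for TIMP3, a metalloprotease inhibitor. None of the 7 genes on the thrombin side passed either (1 was higher at an unadjusted p under 0.05). F2R, the thrombin receptor PAR1, read 5.37 and 5.26 after anti-miR-191, against 4.86 and 4.92 in controls, with limma's adjusted p = 0.104. COL1A1, a gene that the culture should lack, read higher than FGB, TFPI and F2R in both groups. These genes are thus not shown to be above background. PROC, the zymogen of activated protein C, had a difference of -0.24.

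**Figure D3:**
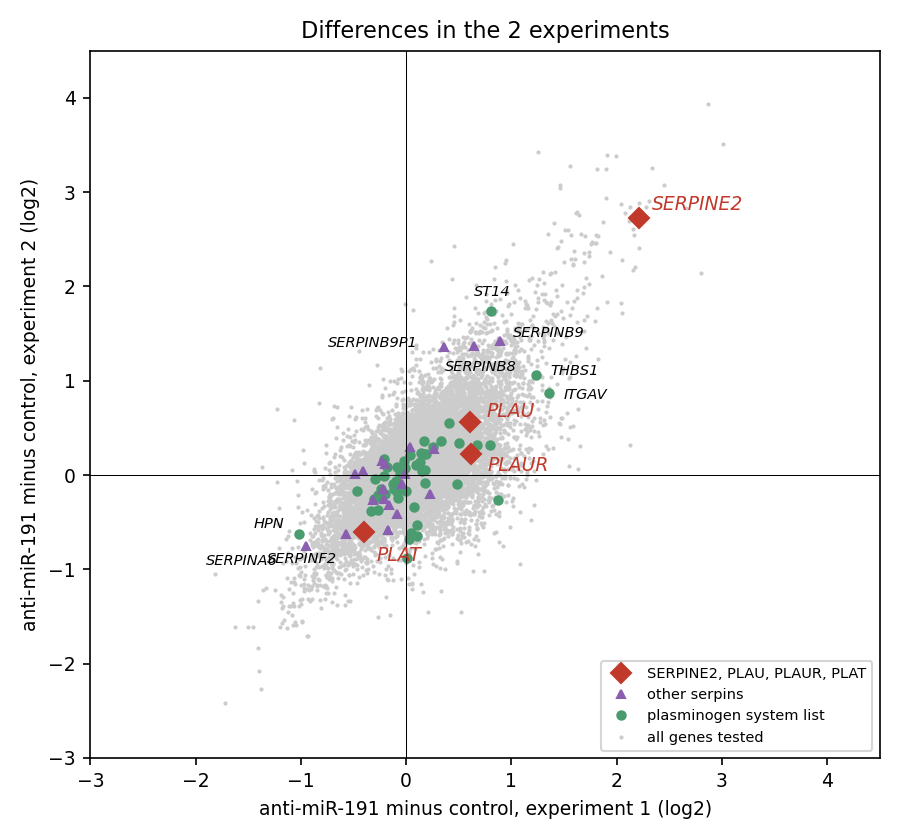
Differences between anti-miR-191 and control on the log2 scale in experiment 1 (x axis) and experiment 2 (y axis) for SERPINE2, PLAU, PLAUR and PLAT, the other serpins, the plasminogen system list and all 14147 genes tested. SERPINE2 lies at 2.21 and 2.73, PLAU and PLAUR lie near each other on the x axis and PLAT lies below 0 on both axes.

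Of 32 other serpin genes with a row on the array, 20 were tested, and 3 rose, 2 fell and 15 did not pass in limma's paired fit, against 10.1% higher and 3.77% lower over all genes. The median difference of the 20 was -0.12, against 0.01 for all genes tested. The risen serpins were members of clade B, serpins that act mainly inside cells. Further genes of clade B were among the 12 serpins too dim to be tested, so no trait of the clade is read from this. SERPINB1, of the same clade and named after its values were seen, had a difference of 0.27 and did not pass. SERPINB9, the inhibitor of granzyme B, read 5.97 and 6.38 after anti-miR-191, against 5.08 and 4.96 in controls. It rose by 1.16 ± 0.17 (SE; limma's adjusted p = 0.0070 in the paired fit and 0.034 without the block). SERPINB8, an inhibitor of furin, read 5.57 and 5.97 after anti-miR-191, against 4.92 and 4.59 in controls. It rose by 1.01 ± 0.19 (SE; limma's adjusted p = 0.0157, and 0.052 without the block, where it did not pass). The pseudogene SERPINB9P1, a relative of SERPINB9 whose probes may share its sequence, rose by 0.86 ± 0.23 (SE; limma's adjusted p = 0.047), with 0.36 in experiment 1 and 1.36 in experiment 2. It lost its call without the block, after each of the 3 other scalings, with a stricter limit on dim rows and with rows averaged per gene (adjusted p between 0.0509 and 0.131). In controls 4 of the 13 rows of genes that the culture should lack read higher than SERPINB9, 4 read higher than SERPINB8 and 5 read higher than SERPINB9P1, so the control levels of these 3 genes are not shown to be above background. After anti-miR-191, 1 of the 13 rows read higher than SERPINB9, 2 read higher than SERPINB8 and 3 read higher than SERPINB9P1. SERPINB8 and SERPINB9P1 are thus not shown to be above background in either group.

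The fallen serpins were secreted liver products, a trait shared with tested serpins that did not pass, such as SERPIND1. SERPINF2 encodes α2-antiplasmin, the main inhibitor of plasmin in plasma. It read 8.38 and 7.77 after anti-miR-191, against 8.95 and 8.39 in controls, and its higher anti-miR-191 array lay just below its lower control. It fell by 0.60 ± 0.14 (SE; limma's adjusted p = 0.0326), and without the block it did not pass (adjusted p = 0.274). SERPINA6, the corticosteroid-binding globulin, which is not a protease inhibitor, read 7.39 and 6.94 after anti-miR-191, against 8.34 and 7.70 in controls. It fell by 0.85 ± 0.15 (SE; limma's adjusted p = 0.0112), and without the block it did not pass (adjusted p = 0.131). SERPIND1, the thrombin inhibitor heparin cofactor II, had a difference of -0.38 ± 0.16 (SE; limma's adjusted p = 0.179), and SERPINF1, the pigment epithelium-derived factor, had a difference of -0.29 ± 0.14 (SE; adjusted p = 0.246). SERPINA5, the protein C inhibitor, which also inhibits urokinase, read 8.02 and 7.63 after anti-miR-191, against 7.99 and 7.33 in controls, and was named after its values were seen. Its groups overlapped. SERPINI1, neuroserpin, an inhibitor of tissue-type activator named after its values were seen, read 3.70 and 3.20 after anti-miR-191, against 3.11 and 3.27 in controls, and was not tested.

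**Figure D4:**
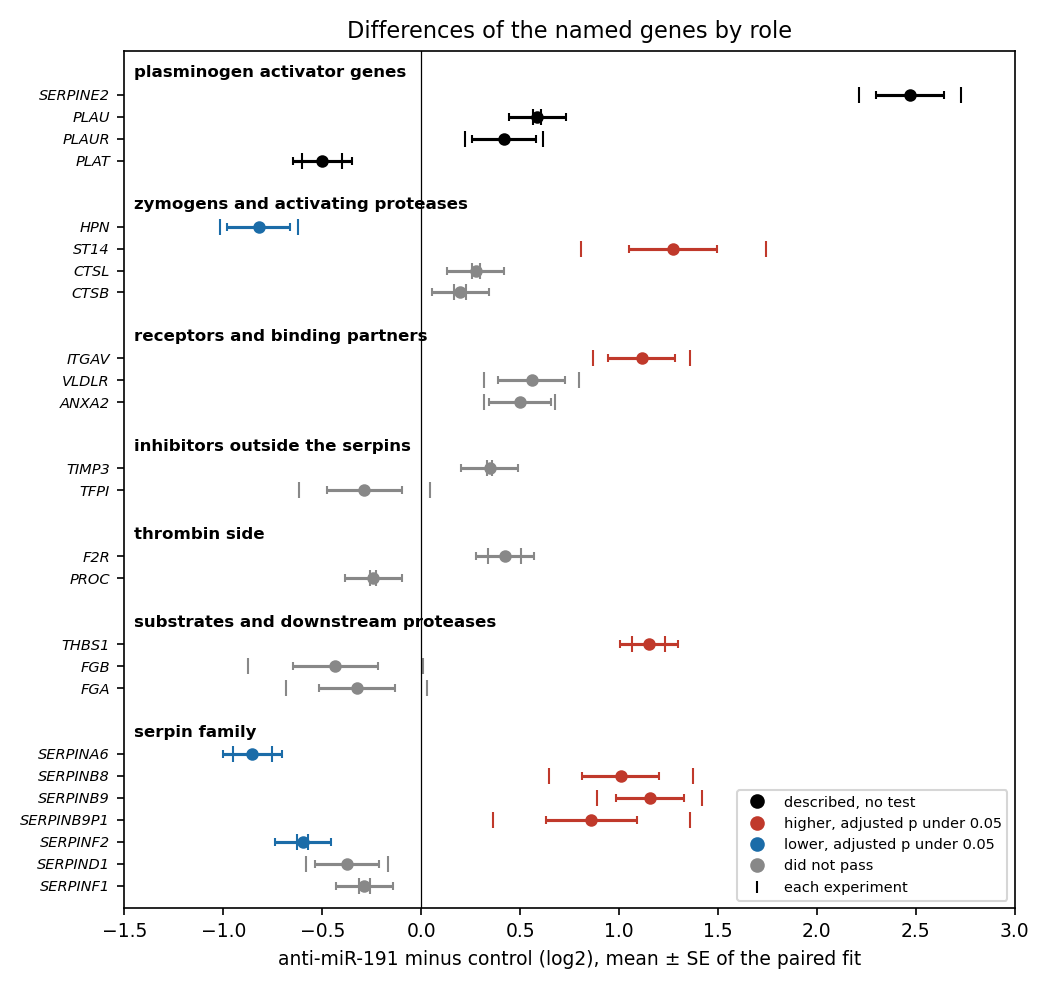
Mean difference between anti-miR-191 and control (log2, x axis) with its SE from the paired fit, for SERPINE2, PLAU, PLAUR and PLAT (black, described without a test) and for the named genes of the lists by role. Ticks are the 2 experiments, red and blue mark genes higher or lower at an adjusted p under 0.05 and grey those that did not pass, with ST14, ITGAV, THBS1 and 3 serpins of clade B in red and HPN, SERPINA6 and SERPINF2 in blue.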

How the data were processed

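The values deposited by the authors are log2 intensities of 4 one-colour Affymetrix arrays. Per the submitters' processing notes they come from RMA, run in Affymetrix Expression Console. Its version and annotation release are not stated here, nor which arrays were normalized jointly, and log2 was inferred from what RMA normally gives and from the value range. RMA has no counting depth, so the number of arrays limits precision. Rows were named from GEO's platform annotation (19460 of 33297 rows with 1 symbol, 1754 with several, 12083 with none). Rows with a mean level below 3.41 (33.3% of them) were left out and the brightest row stood for each gene.

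limma 3.58.1 (lmFit, eBayes, R 4.3.3) was run two-sided on all 14147 genes with Benjamini-Hochberg adjustment and a threshold of 0.05. In the paired fit the experiment was a block (1 residual degree of freedom, 6.60 prior). The pairing rests on the series' design text and the numbered titles, and deviations of same-numbered arrays correlated at 0.335. Members, lists and tests were chosen with earlier results of these data known. Named list genes are all that passed and, per role, up to 2 others with the largest mean difference, and exceptions are stated. For SERPINE2 and PLAU, the members that met the threshold, the 3 most similar genes are named. LRP1, PLG and PLGRKT were also named after their values were seen. Each p-value and SE rests on limma's moderated variance, which weighs the spread of a gene's own arrays with a prior from all genes tested. In the paired fit the prior has the larger weight, 6.60 degrees of freedom against 1. The p-values thus measure a spread between these arrays that is mostly pooled over genes. Motifs were searched in RefSeq windows (GRCh38.p14), and figures were drawn with matplotlib 3.10.9.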

Additional observations from a re-analysis of the deposited data

How the results depend on the processing

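Over the alternatives run, the mean difference lay between 2.34 and 2.61 for SERPINE2 (2.47 as reported), between 0.18 and 0.66 for PLAUR (0.42) and between -0.56 and -0.44 for PLAT (-0.50), and no member changed sign. PLAU had 0.59 as reported, 0.51 after quantile normalization, 0.55 after cyclic loess and 0.52 to 0.65 with either anti-miR-191 array left out and 0.55 to 0.63 with either control left out. PLAT gave no value with rows up to the median level left out. The lowest value for PLAUR came when anti-miR-191 replicate 1 was left out (0.18) and the highest when anti-miR-191 replicate 2 was (0.66). Without the replicate block, 452 genes were called higher and 101 lower, against 1428 and 533 with it, and the plasminogen system list had 1 higher and 0 lower (ST14 alone), against 3 and 1, and the serpins 1 higher and 0 lower (SERPINB9 alone), against 3 and 2. Without the block and with each array left out in turn, limma called 0 to 315 genes higher and 0 to 24 lower, 0 to 1 higher and 0 lower in either list, and counted 1663 to 3178 genes at an unadjusted p under 0.05. The counts were 0 when anti-miR-191 replicate 2, control replicate 1 or control replicate 2 was left out, so SERPINE2 passed in none of these 3 settings. In these fits the lone array is assumed to vary like the other group. Quantile normalization called 881 higher and 510 lower, so that 63.3% of calls were higher, against 72.8% as deposited. The list counts stayed within 1.5 times under the scalings, filters and moderation run with the block. The experiments differed for 45 genes as reported, 24 after median centring, 16 after quantile normalization, 70 with dim rows kept and 23 with rows up to the median level left out. The cause of these changes was not tested. Groups of 2 arrays allow no check for a single deviant array.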
